A study of Homo sapiens with 4 samples.

Results

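The integrin subunits and leukocyte adhesion genes, 37 by name, were examined after mtNPM1 KO in OCI-AML3 cells. The list held 18 α subunits, 8 β subunits, the cytoplasmic activators kindlin-3 (FERMT3) and talin-1 (TLN1), PSGL-1 (SELPLG), CD44, 3 ICAMs and 4 junction molecules. Genes were matched to the count table by Ensembl identifier. Of the 58037 rows of the table, 36 belonged to a listed gene. PECAM1 had no identifier match and was not analysed here. A total of 29 listed genes had enough reads to be tested, and 7 were found but were too low.

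OCI-AML3 is an established human AML cell line that carries heterozygous mutations of NPM1 and DNMT3A and a homozygous mutation of NRAS, so every library came from cells with these alleles at the outset. The cells were transfected with sgRNA Ctrl, labelled sgNeg (2 libraries), or with sgNPM1A, a guide directed at the mutant NPM1 allele (2 libraries), and were harvested 72 h later. The study's text calls the 2 libraries of a group biological replicates. The labels do not say whether they came from separate transfections, so the p-values measure the spread between these libraries.

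Integrins are α/β heterodimers of the cell surface whose talin- and kindlin-bound β tails switch them to the ligand-binding state. On leukocytes the β2 integrins bind ICAMs, while α4 integrins bind VCAM-1, fibronectin and, as α4β7, MAdCAM-1. PSGL-1 carries the glycans bound by selectins during rolling, and CD44 binds hyaluronan. ITGAM and ITGAX encode CD11b and CD11c, surface markers in routine use for maturing myeloid cells.

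Total counts per library lay between 25069484 and 28276391, and 3 counts, taken as the floor, equalled 0.108 to 0.118 CPM (counts scaled to library size). Levels below are CPM normalised by the trimmed mean of M values (TMM), and fold changes are edgeR estimates of sgNPM1A over sgRNA Ctrl on the log2 scale. A gene was called when its Benjamini-Hochberg adjusted p was under 0.05 and its log2 fold change was at least 0.32 in size, the fold threshold the study's methods use. Total NPM1 transcript, which the counts do not split by allele, was at 1319 and 1385 CPM with sgRNA Ctrl and at 1189 and 1132 CPM with sgNPM1A (log2 fold change -0.22, SE 0.07, edgeR adjusted p = 0.0360), so it did not reach the fold threshold. Among the cell type markers, T cell genes summed to 0.0386 CPM or less and endothelial genes to 0.287 CPM or less in every library, B cell genes to between 1.26 and 2.05 CPM and epithelial genes to between 1.33 and 4.25 CPM, while the 6 myeloid identity genes (PTPRC, CD33, ANPEP, CSF3R, MPO and SPI1) summed to 874 and 920 CPM with sgRNA Ctrl and 1267 and 1272 CPM with sgNPM1A. The libraries are bulk RNA, in which more or fewer cells of a kind cannot be told apart from more or less RNA per cell.

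The promoters of 4 called genes are shown because each has a single RefSeq start in the table used here, its window lies outside the annotated gene, and its values are described in detail below. Each line gives the 250 bases before the RefSeq transcription start (GRCh38.p14), 5′ to 3′ along the gene. Capitals mark GAGGAA, the core of PU.1 sites, and GGGCGG, the GC box, on either strand. The windows are chr16:31259725-31259974 on the plus strand for ITGAM, chr12:53207252-53207501 on the minus strand for ITGB7, chr11:35138921-35139170 on the plus strand for CD44, and chr12:54419267-54419516 on the minus strand for ITGA5.
ITGAM: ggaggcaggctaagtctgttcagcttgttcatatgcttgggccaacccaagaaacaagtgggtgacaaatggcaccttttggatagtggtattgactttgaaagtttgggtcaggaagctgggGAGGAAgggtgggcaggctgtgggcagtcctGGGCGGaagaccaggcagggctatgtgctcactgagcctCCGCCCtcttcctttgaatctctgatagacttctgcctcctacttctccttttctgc
ITGB7: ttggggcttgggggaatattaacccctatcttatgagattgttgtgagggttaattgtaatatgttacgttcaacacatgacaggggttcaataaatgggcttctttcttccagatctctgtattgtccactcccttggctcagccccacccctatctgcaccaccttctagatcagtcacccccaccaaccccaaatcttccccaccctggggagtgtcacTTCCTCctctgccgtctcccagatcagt
CD44: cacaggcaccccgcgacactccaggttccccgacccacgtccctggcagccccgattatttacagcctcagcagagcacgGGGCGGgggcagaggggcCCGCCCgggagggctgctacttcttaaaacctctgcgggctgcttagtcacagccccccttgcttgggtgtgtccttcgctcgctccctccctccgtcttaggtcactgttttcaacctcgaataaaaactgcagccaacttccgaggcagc
ITGA5: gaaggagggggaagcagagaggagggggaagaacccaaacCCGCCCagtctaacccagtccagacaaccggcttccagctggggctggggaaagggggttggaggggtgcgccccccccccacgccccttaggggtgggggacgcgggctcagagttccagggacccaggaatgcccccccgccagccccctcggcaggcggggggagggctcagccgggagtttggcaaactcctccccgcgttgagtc
The ITGAM window held 1 GAGGAA and 2 GGGCGG, the ITGB7 window 1 GAGGAA, the CD44 window 2 GGGCGG and the ITGA5 window 1 GGGCGG. Promoter entries were present for 24 of the listed genes, with 32 windows in all. GAGGAA was found in 11 of the 32 windows and in 23.6% of all 35116 promoters, and GGGCGG in 16 of the 32 and in 42.6% of all. The RUNX core TGTGGT was in 2 of the 32 and in 11% of all, and the AP-1 motif TGANTCA in 1 of the 32 and in 6.57% of all. None of these motifs contains another, and a match is a description of sequence only.

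Of the 29 tested adhesion genes, 4 were called higher after mtNPM1 KO (ITGAM, ITGAX, ITGA4 and ITGB7) and 5 were called lower (ITGB5, ITGA6, ITGAV, CD44 and ITGA5). Among all 15718 tested genes, 20.8% were called, 10.5% higher and 10.3% lower, against 31.0% of the adhesion genes. Of 5 tested leukocyte α subunits 3 were called higher and 0 lower, and of 10 tested other α subunits 0 were called higher and 3 lower. The other 9 of the 15 were not called, the difference between the classes was not tested, and the ITGA4 and ITGAV calls were lost under some alternatives. These classes were set with earlier results of these data known, so the split is a description only. The median log2 fold change was 0.50 in the leukocyte α subunits, which is the value of ITGA4 itself, and -0.48 in the other α subunits. It was 0.09 over all 29 adhesion genes and 0.00 over all tested genes. Values of the groups did not overlap for 17 of the 29 genes, which is 58.6% against 63.1% of all tested genes.

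**Figure D1:**
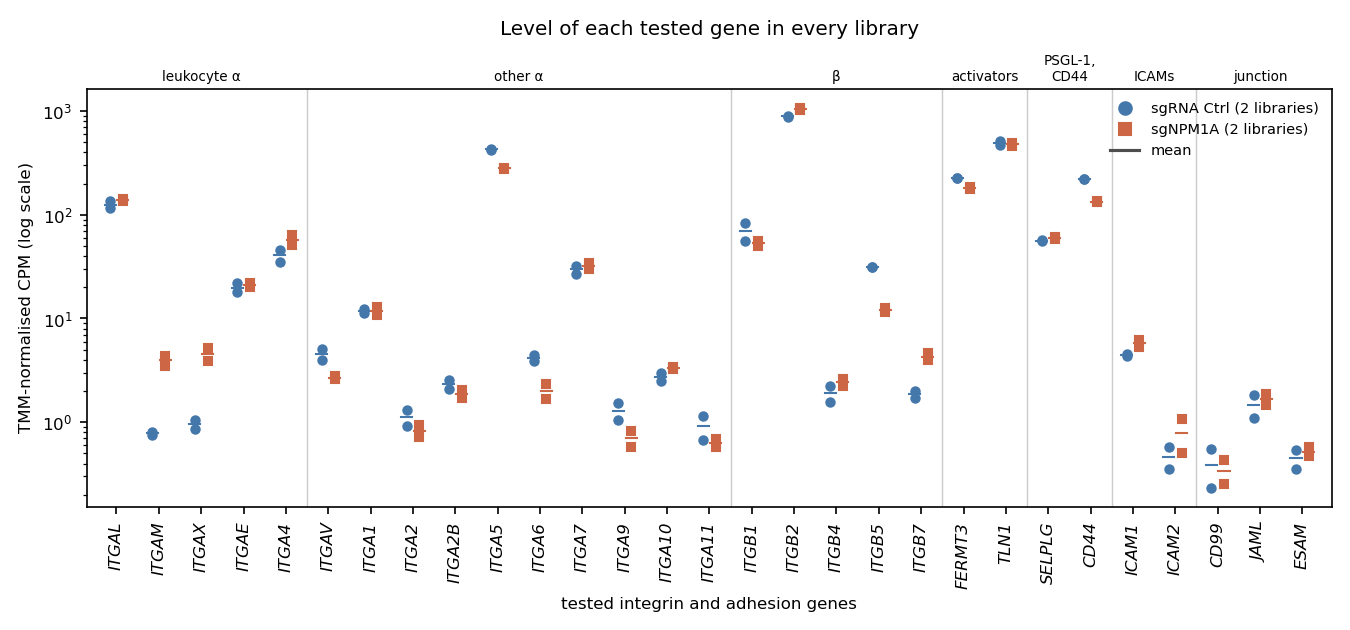
TMM-normalised CPM (log axis) of the 29 tested adhesion genes in each of the 4 libraries, with circles for sgRNA Ctrl, squares for sgNPM1A and short lines for group means; genes are ordered by role. The levels run from under 1 CPM for ESAM to about 1000 CPM for ITGB2, and ITGAM, ITGAX, ITGB5 and CD44 show groups set well apart. CD99 is drawn, but its value was not read as a level.

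ITGAM (ENSG00000169896, chr16:31259975-31332877), the α chain of Mac-1, had 19 and 21 counts with sgRNA Ctrl and 98 and 121 with sgNPM1A. Its mean rose from 0.779 ± 0.0448 to 3.94 ± 0.595 CPM (SD, n = 2; log2 fold change 2.33, SE 0.24, edgeR adjusted p = 3.74e-05). Every sgNPM1A library lay above both control libraries. ITGAX (chr16:31355176-31382999), the α chain of p150,95, lies next to ITGAM in the cluster of leukocyte α subunits on chromosome 16. It had 22 and 27 counts with sgRNA Ctrl and 145 and 108 with sgNPM1A, and its mean rose from 0.954 ± 0.125 to 4.55 ± 0.928 CPM (SD, n = 2; log2 fold change 2.25, SE 0.24, edgeR adjusted p = 5.01e-05). These were the largest increases among the 29 tested adhesion genes, from levels of about 1 CPM. Of ITGAM's annotated 50-base words 0.364% recur in other genes, most often in ITGAX. How the counting assigned reads that fit both genes is not given.

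ITGAL (chr16:30472742-30523185), the α chain of LFA-1 in the same chromosomal region, was far more abundant and was not called. It was at 116 and 134 CPM with sgRNA Ctrl and at 141 and 135 CPM with sgNPM1A (log2 fold change 0.14, SE 0.08, edgeR adjusted p = 0.220). The groups did not overlap, but the control libraries differed from each other by more than the group means did. ITGAD, the fourth α chain of that cluster, had 1 count in all 4 libraries together and was not tested. The shared partner ITGB2 (chr21:44885953-44928815), the β2 chain, was the most abundant adhesion gene, with 22932 and 22533 counts in the controls and 28727 and 29899 with sgNPM1A. Its level was 886 ± 22.7 CPM with sgRNA Ctrl and 1054 ± 32.7 CPM with sgNPM1A (SD, n = 2; log2 fold change 0.25, SE 0.07, edgeR adjusted p = 0.0185), a difference past the p threshold that did not reach the fold threshold. ITGB2 passed the p threshold with DESeq2 (adjusted p = 0.00509). It did not with limma-trend (log2 fold change 0.14, adjusted p = 0.183) or with the replicate number as a block in edgeR (0.25, adjusted p = 0.0910). Nor did ITGB2 pass it without sgNPM1A replicate 1 (log2 fold change 0.28) or without sgNPM1A replicate 2 (0.22). Its antisense gene ITGB2-AS1 was at 60.6 CPM with sgRNA Ctrl and 75.6 CPM with sgNPM1A (log2 fold change 0.32, adjusted p = 0.0253), and since the strand setting of the counting is not given, reads of the pair cannot be told apart.

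Per kilobase of annotated exon, the β2 chain exceeded its α partners combined in both groups, with 121 CPM per kilobase for ITGB2, 12.7 for ITGAL, 0.137 for ITGAM and 0.135 for ITGAX in the controls. After mtNPM1 KO these were 144, 14.0, 0.692 and 0.642 CPM per kilobase. Of the summed per-kilobase level of the β2-binding α chains, ITGAL made up 97.9% in each control library and 91.3% and 91.2% in the sgNPM1A libraries. ITGAM went from 1.10% and 1.02% to 3.95% and 5.10%, and ITGAX from 1.02% and 1.06% to 4.70% and 3.66%. These shares restate the fold changes above on 1 scale and were not tested separately.

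**Figure D2:**
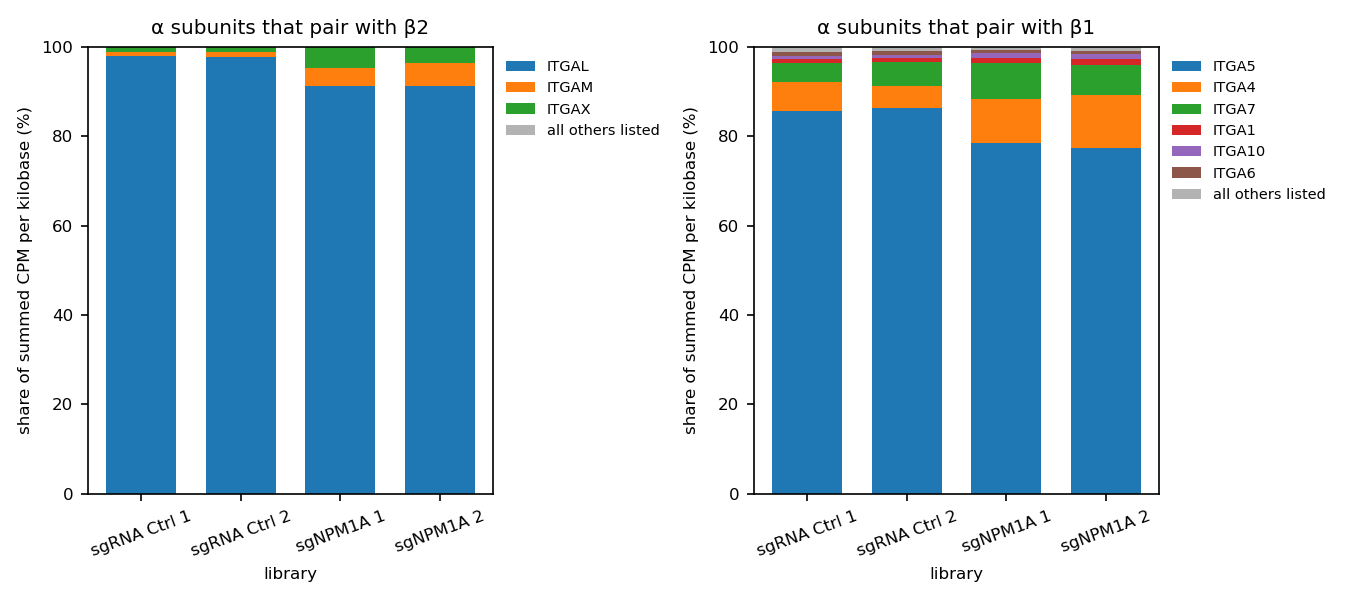
Share (%) of the summed CPM per kilobase of exon that each α subunit took among the α subunits pairing with β2 (left) and β1 (right), as stacked bars starting at 0, for each library. ITGAL falls from 97.9% to 91.3% and 91.2% on the left, and ITGA5 from 85.7% and 86.3% to 78.4% and 77.3% on the right.

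ITGB7 (chr12:53191323-53207251), the β7 chain of the gut-homing integrin α4β7 and of αEβ7, had 44 and 52 counts with sgRNA Ctrl and 110 and 129 with sgNPM1A. It rose from 1.87 ± 0.196 to 4.30 ± 0.495 CPM (SD, n = 2; log2 fold change 1.20, SE 0.20, edgeR adjusted p = 0.00103), with no overlap between groups. Of its exon bases 42.3% overlap exons of other genes, with ZNF740 on the opposite strand as the largest partner. ZNF740 was at 60.6 CPM in the controls and 49.9 CPM with sgNPM1A, a difference of the other sign. ITGA4 (chr2:181457205-181538940), the α4 chain of VLA-4 and α4β7, had 1171 and 913 counts in the controls and 1425 and 1766 with sgNPM1A. Its level rose from 40.7 ± 7.65 to 57.4 ± 8.82 CPM (SD, n = 2; log2 fold change 0.50, SE 0.13, edgeR adjusted p = 0.0156). Both libraries of each group spread widely for this gene, and the call was lost without sgNeg replicate 2 (log2 fold change 0.32, adjusted p = 0.104) or without sgNPM1A replicate 2 (0.33, adjusted p = 0.0878). In addition, 26.4% of ITGA4's exon bases overlap other genes, with CERKL on the opposite strand as the largest partner. CERKL itself rose from 26.8 to 38.8 CPM (log2 fold change 0.53, edgeR adjusted p = 0.00123). The part of CERKL reads in the ITGA4 value was not tested. ITGAE, which encodes the αE partner of β7, was at 17.8 and 21.9 CPM with sgRNA Ctrl and 22.1 and 20.1 CPM with sgNPM1A (log2 fold change 0.09, adjusted p = 0.620). Other genes overlap 7.65% of the exon bases of ITGAE, and HASPIN, the largest such partner, was called lower.

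ITGB5 (chr3:124761948-124901418), the β5 chain of the vitronectin receptor αvβ5, showed the largest decrease among the 29 tested adhesion genes. It had 789 and 808 counts with sgRNA Ctrl and 354 and 318 with sgNPM1A, and fell from 31.1 ± 0.112 to 12.1 ± 0.882 CPM (SD, n = 2; log2 fold change -1.37, SE 0.10, edgeR adjusted p = 2.35e-06). Replicates lay close together and the groups far apart. Its α partner ITGAV (chr2:186590056-186680901) had 128 and 104 counts in the controls and 77 and 73 with sgNPM1A, and fell from 4.53 ± 0.721 to 2.70 ± 0.0943 CPM (SD, n = 2; log2 fold change -0.75, SE 0.19, edgeR adjusted p = 0.0122). The ITGAV call was lost with DESeq2 (adjusted p = 0.0843) and without sgNeg replicate 1 (log2 fold change -0.58, adjusted p = 0.0721). The other β partners of αv were near the floor. ITGB3 had 5 and 3 counts with sgRNA Ctrl and 1 and 1 with sgNPM1A, a ratio of 0.231 with an exact 95% counting interval of 0.0239 to 1.16. ITGB6 had 0, 1, 0 and 3 counts and ITGB8 had 4, 4, 3 and 1 in the 2 control and 2 sgNPM1A libraries. ITGA2B, the platelet αIIb chain that pairs with β3, was at 2.32 CPM in the controls and 1.89 CPM with sgNPM1A (log2 fold change -0.30, adjusted p = 0.369), and megakaryocyte and platelet markers summed to between 1.93 and 3.21 CPM, with PPBP called higher among the 5 (log2 fold change 2.57, adjusted p = 0.0108).

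ITGA5 (chr12:54395261-54419266), the α5 chain of the fibronectin receptor α5β1, was the most abundant α subunit. It had 10998 and 11005 counts with sgRNA Ctrl and 7715 and 7903 with sgNPM1A, and fell from 429 ± 5.47 to 281 ± 5.54 CPM (SD, n = 2; log2 fold change -0.61, SE 0.06, edgeR adjusted p = 3.80e-05). ITGA6 (chr2:172427336-172506459), the α6 chain of laminin receptors, had 113 and 100 counts in the controls and 47 and 65 with sgNPM1A. It fell from 4.15 ± 0.413 to 2.01 ± 0.463 CPM (SD, n = 2; log2 fold change -1.04, SE 0.21, edgeR adjusted p = 0.00364). Its second β partner ITGB4 was at 1.91 CPM with sgRNA Ctrl and 2.43 CPM with sgNPM1A (log2 fold change 0.34, adjusted p = 0.319).

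ITGB1 (chr10:32900318-32958230), the β1 chain shared by 12 of the α subunits listed, was at 82.6 and 55.5 CPM with sgRNA Ctrl and 50.3 and 56.0 CPM with sgNPM1A (log2 fold change -0.38, SE 0.15, edgeR adjusted p = 0.0805). The first control library stood above the other 3, which differed little, so the groups overlapped and ITGB1 was not called. Without sgNeg replicate 1 the log2 fold change was -0.06 (adjusted p = 0.649), and without sgNeg replicate 2 it was -0.63 (adjusted p = 0.00123), or -0.45 without sgNPM1A replicate 2 (adjusted p = 0.00935). Among the α chains that pair with β1, ITGA5 made up 85.7% and 86.3% of the summed per-kilobase level with sgRNA Ctrl and 78.4% and 77.3% with sgNPM1A. ITGA4 took 6.33% and 4.96% in the controls and 10.0% and 12.0% with sgNPM1A. The laminin receptor chain ITGA7 took 4.35% and 5.34% in the controls and 7.91% and 6.67% with sgNPM1A, while its own level was not called (29.7 and 32.3 CPM, log2 fold change 0.12, adjusted p = 0.448).

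The remaining α subunits were low and none was called. The collagen receptor chain ITGA1 was at 11.8 CPM with sgRNA Ctrl and 11.9 CPM with sgNPM1A (log2 fold change 0.01, SE 0.12, adjusted p = 0.971). The collagen receptor chains ITGA10, ITGA2 and ITGA11 had log2 fold changes of 0.28, -0.42 and -0.54 with adjusted p of 0.319, 0.368 and 0.321, all at under 4 CPM. ITGA9 had the largest uncalled difference of the α subunits, from 1.29 ± 0.348 to 0.701 ± 0.180 CPM (SD, n = 2; log2 fold change -0.87, SE 0.33, adjusted p = 0.0782), and its groups did not overlap. The antisense gene ITGA9-AS1 had a value of the other sign (log2 fold change 1.04, adjusted p = 0.0601). ITGA3 had 11 and 4 counts with sgRNA Ctrl and 2 and 7 with sgNPM1A, and ITGA8 had 1 count in all.

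**Figure D3:**
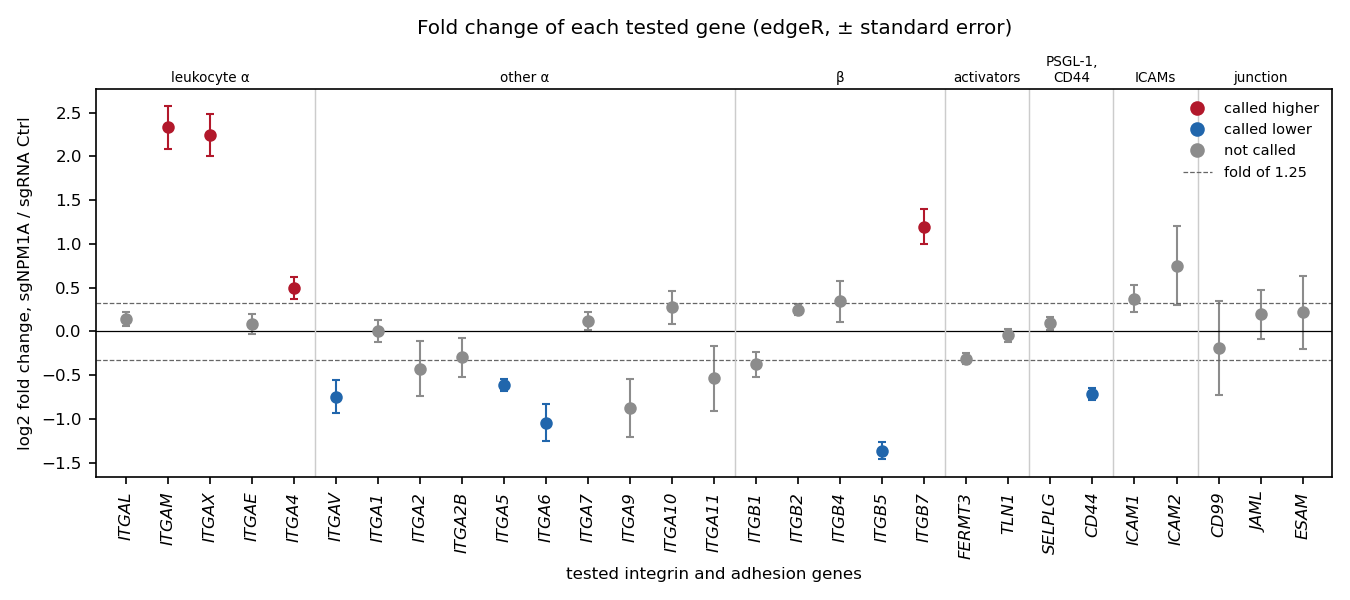
Log2 fold change of sgNPM1A over sgRNA Ctrl for the 29 tested adhesion genes by role. Bars are standard errors derived from the edgeR F statistic. Zero is a solid line and the fold threshold of 0.32 (log2) is drawn as dashed lines. ITGAM, ITGAX, ITGB7 and ITGA4 lie above the upper line as called genes, and ITGB5, ITGA6, ITGAV, CD44 and ITGA5 below the lower one.

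Seen as receptors, 24 known α/β pairs could be formed from the listed subunits, and for 17 both chains were tested. Both chains were called higher in 1 pair, ITGA4 with ITGB7, and both lower in 1 pair, ITGAV with ITGB5. A single chain was called in 8 pairs and neither in 7, and 0 pairs had chains called in opposite directions in this fit. Without the filter on low counts, ITGA4 was called higher (log2 fold change 0.49) and its partner ITGB1 lower (-0.38). The same held with the replicate number as a block, whether as labelled or crossed. As stated above, the ITGA4 and ITGAV calls, on which both concordant pairs rest, were lost under some alternatives. In the pair called higher, ITGA4 was at 3.82 and ITGB7 at 0.420 CPM per kilobase in the controls, and at 5.38 and 0.965 after mtNPM1 KO. In the pair called lower the β chain was the more abundant, with ITGAV at 0.234 and ITGB5 at 4.78 CPM per kilobase in the controls and at 0.139 and 1.85 after mtNPM1 KO. These are transcript levels, and surface receptors were not measured in these libraries.

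Of the 2 cytoplasmic activators, FERMT3 (chr11:64205920-64223891), the kindlin of blood cells, had 5769 and 5825 counts with sgRNA Ctrl and 4970 and 5147 with sgNPM1A. Its level was 226 ± 1.44 CPM with sgRNA Ctrl and 182 ± 5.0 CPM with sgNPM1A (SD, n = 2; log2 fold change -0.31, SE 0.06, edgeR adjusted p = 0.00392). This lay just under the fold threshold and passed it when libraries were scaled by library size only (-0.35) or by the upper quartile (-0.32), and without sgNPM1A replicate 2 (-0.34, adjusted p = 0.0498). Without sgNPM1A replicate 1 the adjusted p was 0.117. TLN1, which encodes talin-1, was at 492 ± 30.2 CPM in the controls and 477 ± 20.8 CPM with sgNPM1A (SD, n = 2; log2 fold change -0.04, adjusted p = 0.701), with overlapping groups.

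CD44 (chr11:35139171-35232402) had 5581 and 5684 counts with sgRNA Ctrl and 3762 and 3681 with sgNPM1A. It fell from 220 ± 0.0622 to 134 ± 1.69 CPM (SD, n = 2; log2 fold change -0.71, SE 0.06, edgeR adjusted p = 1.13e-05), with replicates of each group close together. The counts are per gene and do not separate the standard from the variant CD44 isoforms. SELPLG, the gene of PSGL-1, was at 56.8 and 55.4 CPM in the controls and 58.2 and 61.5 CPM with sgNPM1A (log2 fold change 0.09, SE 0.07, adjusted p = 0.407).

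ICAM1, a ligand of the β2 integrins, was at 4.52 and 4.36 CPM with sgRNA Ctrl and 5.35 and 6.16 CPM with sgNPM1A. Its groups did not overlap but the difference was not called (log2 fold change 0.37, SE 0.16, edgeR adjusted p = 0.103). Of ICAM1's exon bases 25.4% overlap other genes, ICAM4-AS1 the most. ICAM2 was under 1.1 CPM in every library (log2 fold change 0.75, SE 0.46, adjusted p = 0.259), and 26.8% of its exon bases overlap other genes, PRR29 the most. ICAM3 had 0 and 2 counts with sgRNA Ctrl and 11 and 7 with sgNPM1A and did not pass the filter on low counts. Its ratio over the summed libraries was 8.30, with an exact 95% counting interval of 1.99 to 73.8 that covers counting error only. Of its exon bases 75.4% overlap other annotated genes, ENSG00000274425 the most. The junction molecules JAML (1.46 and 1.67 CPM) and ESAM (0.447 and 0.521 CPM) were not called, with adjusted p of 0.663 and 0.748. CD99 had 14, 6, 12 and 7 counts, but it lies in the pseudoautosomal region and all of its 50-base words (100%) recur in its Y copy. Of the 45 genes with copies on both sex chromosomes, 1 X copy, that of CD99, had any count, so its value was not read as a level.

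Of the 6 myeloid identity markers, 4 were called higher and 0 lower, beside the 10.5% of all tested genes called higher. CSF3R, the G-CSF receptor, rose from 90.1 to 238 CPM (log2 fold change 1.40, edgeR adjusted p = 1.35e-07), and MPO, the granule peroxidase, from 3.02 to 10.3 CPM (log2 fold change 1.77, adjusted p = 7.52e-06). SPI1, which encodes PU.1, rose from 473 to 660 CPM (log2 fold change 0.48, adjusted p = 0.000552), and ANPEP from 78.9 to 111 CPM (0.49, adjusted p = 0.000528). PTPRC (CD45) and CD33 were not called, with log2 fold changes of -0.05 and 0.06. Their part in the changes of ITGAM, ITGAX, ITGA4 and ITGB7 was not tested.

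Genes that act with integrins were followed in 4 further lists. Of the integrin activation and linker genes, 27 of 30 were tested, 8 were called higher and 4 lower, with a median log2 fold change of 0.12. FYB1 (ADAP), an adaptor of inside-out integrin signalling, rose from 22.6 to 62.8 CPM (log2 fold change 1.48, SE 0.08, edgeR adjusted p = 2.77e-07). ZYX (zyxin), of focal adhesions and actin fibres, rose from 157 to 347 CPM (1.15, SE 0.07, adjusted p = 8.49e-07), and RSU1, of the ILK complex, from 110 to 174 CPM (0.66, SE 0.07, adjusted p = 3.77e-05). PTK2, the focal adhesion kinase, fell from 17.3 to 9.76 CPM (-0.83, SE 0.11, adjusted p = 0.000236). APBB1IP (RIAM), which brings talin to the membrane with RAP1, fell from 97.4 to 69.1 CPM (-0.50, SE 0.07, adjusted p = 0.000385). PXN (paxillin) fell from 16.0 to 11.5 CPM (-0.48, SE 0.11, adjusted p = 0.00871), a call lost without sgNPM1A replicate 1. Of PXN's exon bases 27.2% overlap other genes, with PXN-AS1 on the opposite strand as the largest partner.

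Of the selectins and the enzymes that build their ligands, 11 of 15 genes were tested, 5 were called higher and 0 lower, with a median log2 fold change of 0.36. The fucosyltransferases FUT4 and FUT7, which complete sialyl Lewis X, rose from 63.8 to 103 CPM (log2 fold change 0.69, SE 0.07, edgeR adjusted p = 4.88e-05) and from 45.5 to 66.6 CPM (0.55, SE 0.08, adjusted p = 0.000473). The sialyltransferase ST3GAL6 rose from 2.57 to 6.97 CPM (1.44, SE 0.16, adjusted p = 5.87e-05). SELPLG, the carrier of these glycans, was not called (above). Of FUT7's exon bases 35.8% overlap other genes, with ENSG00000279073 on the same strand as the largest partner.

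Among other leukocyte adhesion and junction molecules, 21 of 27 were tested, 4 were called higher and 1 lower. ALCAM, the ligand of CD6, rose from 9.44 to 20.6 CPM (log2 fold change 1.13, SE 0.14, edgeR adjusted p = 0.000124), EMB (embigin) from 29.4 to 51.4 CPM (0.81, adjusted p = 0.000272) and F11R (JAM-A), a ligand of LFA-1, from 6.53 to 10.5 CPM (0.69, adjusted p = 0.00200). ADGRE5 (CD97) fell from 186 to 139 CPM (-0.42, adjusted p = 0.000794). Of F11R's exon bases 36.6% overlap other genes, with ENSG00000270149 on the same strand as the largest partner.

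Of 26 matrix ligands of integrins, 14 were tested, 2 were called higher and 6 lower, with a median log2 fold change of -0.28. LAMB3, a laminin β chain, fell from 25.3 to 6.38 CPM (log2 fold change -1.99, SE 0.12, edgeR adjusted p = 6.41e-07), COL1A2, a collagen I chain, from 28 to 11.1 CPM (-1.33, SE 0.13, adjusted p = 3.11e-05) and FN1, the fibronectin gene, from 47.0 to 33.4 CPM (-0.50, SE 0.08, adjusted p = 0.00118). COL4A1 and SPP1 rose from under 0.4 CPM (log2 fold changes 1.60 and 2.02, adjusted p = 0.00826 and 0.0117), and both calls were lost with DESeq2 (adjusted p = 0.0932 and 0.138). The COL4A1 call was also lost without sgNeg replicate 1 (adjusted p = 0.0602), and the SPP1 call without sgNeg replicate 1, sgNeg replicate 2 or sgNPM1A replicate 2 (adjusted p from 0.0721 to 0.139). COL1A2 also stands among the 4 fibroblast markers, whose summed level (28.4 and 29.7 CPM with sgRNA Ctrl, 13.9 and 10.6 CPM with sgNPM1A) is mostly COL1A2 itself. Of the other fibroblast markers, DCN was called lower (log2 fold change -1.44, adjusted p = 0.0437) and PDGFRB higher (1.49, adjusted p = 0.0315), both from under 1 CPM. Every library is of the OCI-AML3 cell line, and what lies behind these marker values was not tested. The share of calls was 44.4%, 45.5%, 23.8% and 57.1% in the 4 lists in this order, against the 20.8% of all tested genes.

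**Figure D4:**
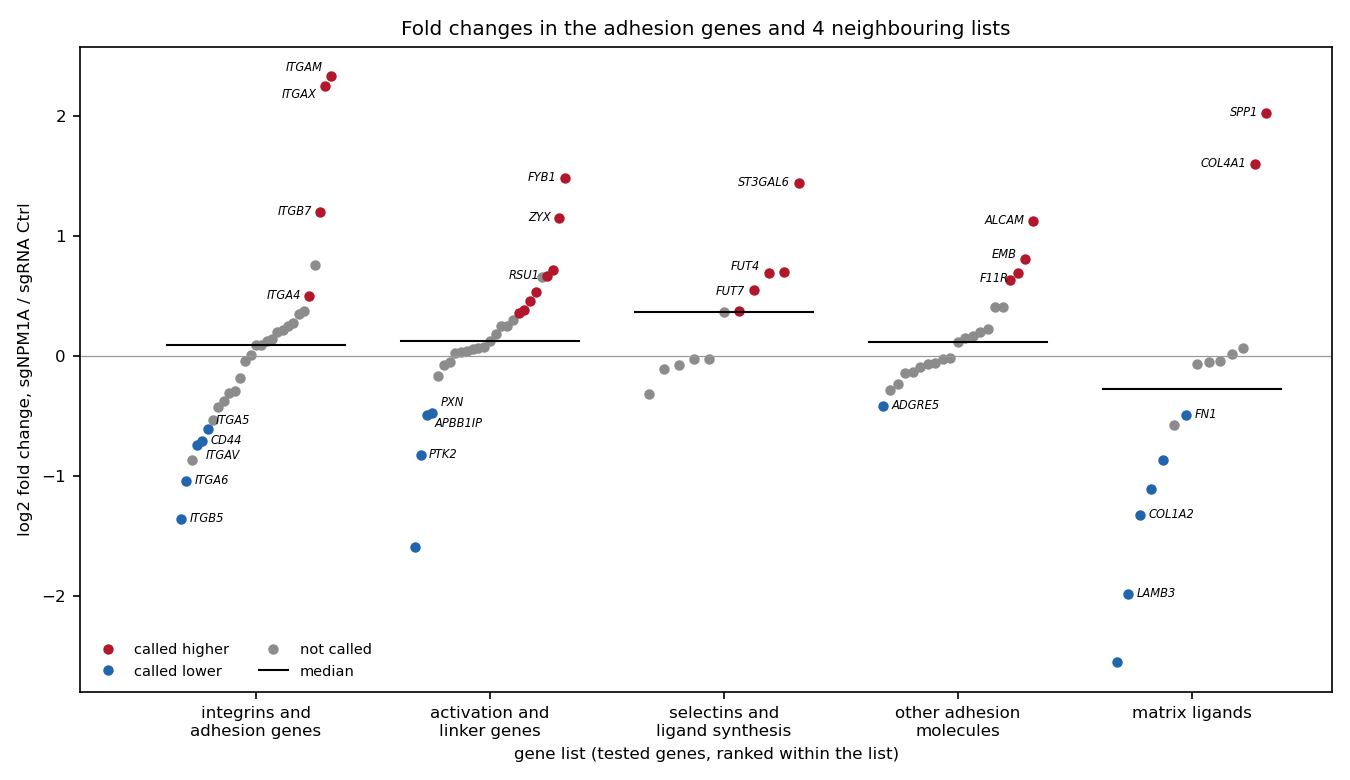
Log2 fold change of sgNPM1A over sgRNA Ctrl (vertical axis) for tested genes of the adhesion list and of 4 neighbouring lists, ranked within each list, with called genes in colour and medians as lines. The medians are 0.09, 0.12, 0.36, 0.12 and -0.28 from left to right, and symbols mark the called adhesion genes and the neighbours named in the text.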

How the data were processed

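Total RNA of OCI-AML3 cells was sequenced 72 h after transfection, with 2 libraries per group. Reads were aligned to hg38 by the authors (STAR, Samtools), and the values deposited are raw read counts for each Ensembl gene of each library. The counting program, annotation release and strand setting are not given in the sources used here. The study's methods name ERCC spike-in controls, but the count table holds 0 ERCC rows, so they could not be used here. Libraries were grouped by their titles. The adhesion genes, roles and lists were chosen with earlier results of these data known, and the receptor pairs and motifs after values were seen.

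Counts were fitted with edgeR 4.0.16 (R 4.3.3): TMM scaling, filterByExpr by group (minimum count 10, 15718 of 58037 rows kept), robust quasi-likelihood F test, two-sided, Benjamini-Hochberg adjustment over all tested genes. CPM used TMM library sizes, and SDs are over libraries. Each SE was derived as the size of the log2 fold change divided by the square root of its F statistic. The code was tested on simulated data. All listed genes were named, and from each neighbouring list at most the 3 called genes with the smallest adjusted p per direction, besides the marker genes and, chosen after their values were seen, genes overlapping a listed gene.

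Positions are from RefSeq (GRCh38.p14). Exon lengths (union of exons), overlaps and shared 50-base words came from GENCODE v44 lifted to GRCh37, without use of its coordinates. Intervals cover counting error only. The replicate number was not used as a block, since neither labels nor methods say that it pairs libraries. For the same-number correlation, each group's mean was first subtracted from log2 CPM. The remaining deviations of same-numbered libraries correlated at -0.13 over 15718 tested genes and at -0.52 over the 8856 with a mean above 10 CPM. Alternatives were DESeq2 1.42.0, limma-trend (limma 3.58.1) on quantile-normalised log2 CPM, other scalings, filters and thresholds, the replicate block and leaving out each library.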

Additional observations from a re-analysis of the deposited data

How the results depend on the processing

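Of the 9 called adhesion genes, 7 (ITGAM, ITGAX, ITGA5, ITGA6, ITGB5, ITGB7 and CD44) kept their call under each of the 15 alternatives that gave a value, the 2-fold threshold aside. A threshold of 2-fold left 498 genes higher and 502 lower in all, and 3 adhesion genes higher and 2 lower. The count of adhesion genes called higher ranged from 3 to 4 and that called lower from 4 to 7 when 1 library was left out, with medians from 0.01 to 0.08. Genes called ranged from 1224 to 1574 higher and from 1166 to 1571 lower in those fits, in which the lone library of a group was assumed to vary like the others. DESeq2 called 1191 genes higher and 1144 lower. Without the filter on low counts ICAM3 and ITGB1 were called as well, and 5 adhesion genes were then higher and 6 lower.

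Signs turned in 7 genes, none of which was called in any fit. ITGA1 was at -0.032 with library size only and -0.000885 with the upper quartile. When 1 library was left out, log2 fold changes ranged from -0.12 to 0.13 for ITGA1 (-0.049 without sgNeg replicate 2), -0.052 to 0.24 for ITGAE, -0.0045 to 0.26 for ITGA7, -0.10 to 0.019 for TLN1 (0.0029 without sgNPM1A replicate 1), -0.68 to 0.55 for CD99 (0.14 without sgNPM1A replicate 2), -0.12 to 0.60 for JAML and -0.053 to 0.55 for ESAM. The cause was not tested.

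With the replicate number as a block, 1637 genes were called higher and 1604 lower, and 4 adhesion genes higher and 6 lower, with ITGB1 added (log2 fold change -0.35, adjusted p = 0.0138). The same-number correlation, of deviations from group means, was -0.13 over all tested genes and -0.52 over the 8856 with a mean above 10 CPM. With the numbers crossed, chosen after seeing the data, 1955 genes were called higher and 1918 lower. Then 5 adhesion genes were higher and 7 lower, with ICAM1, ITGA9 and ITGB1 added. Depth limits ITGAD, ITGA3, ITGA8, ITGB3, ITGB6, ITGB8 and ICAM3, each under 20 counts per library.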

Other observations

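Some genes are annotated on top of the adhesion genes, and reads of such pairs cannot be told apart where the strand setting is not given. HASPIN, which lies within ITGAE, is the largest partner in the 7.65% of ITGAE exon bases that overlap other genes. It fell from 32.4 to 22.3 CPM (log2 fold change -0.54, SE 0.09, edgeR adjusted p = 0.00126), while ITGAE was not called. ITGA9-AS1 was at 9 and 11 counts with sgRNA Ctrl and 22 and 23 with sgNPM1A (log2 fold change 1.04, SE 0.37, adjusted p = 0.0601, not called), and the overlapping ITGA9 had a value of the other sign. These genes were chosen after their values were seen.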
